A study of Homo sapiens with 21 samples.

Results

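The replication-dependent histone genes encode the H1, H2A, H2B, H3 and H4 proteins that package newly copied DNA. The genes studied here were all those whose symbol in the array's annotation began with HIST1H, HIST2H or HIST3H, or whose current name begins with H1-1 to H1-5, H2AC, H2BC, H3C or H4C. The rule found 44 genes of 19426 annotated on the array, 6 of class H1, 11 of H2A, 16 of H2B, 7 of H3 and 4 of H4. Of these, 32 had at least 1 probeset above the filter on dim signal and were tested, 23 of them on chromosome 6, 8 on chromosome 1 and 1, H2BC12L, on chromosome 21. The count of tested genes was 6 of 6 in H1, 7 of 11 in H2A, 12 of 16 in H2B, 5 of 7 in H3 and 2 of 4 in H4.

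The cells were MCF10A, an immortalised but non-tumorigenic line of human mammary epithelium. Every culture had been kept for 24 h without epidermal growth factor (EGF) and for another 24 h in starvation medium holding 1% horse serum. EGF was then given at 20 ng/ml and cells were taken at 0 min (untreated) and at 20, 40, 60, 120, 240 and 480 min, with 3 biological replicates and 3 arrays at each time, 21 arrays in all. No untreated arrays at later times were analysed here, so EGF, handling and time in culture cannot be told apart. Ribosomal RNA was removed from total RNA with no stated selection for poly(A) tails, so that transcripts without such tails could be measured.

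Most mRNAs of these genes have no introns and end in a conserved stem-loop in place of a poly(A) tail. The stem-loop is bound by SLBP, and its 3′ end is cut by the U7 small nuclear ribonucleoprotein inside the histone locus body, a nuclear site organised by NPAT. The mRNAs accumulate when cells copy their DNA and are degraded quickly when copying ends, whereas variants such as H3.3 and H2A.Z are made throughout the cell cycle from genes with ordinary poly(A) tails. Some genes of the family are also known to give polyadenylated transcripts in cells that are not dividing.

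The promoters of 29 of the 32 tested genes were found in a RefSeq table of 300-base windows, 250 bases before to 50 after the start (GRCh38.p14). The letters CCAAT, on either strand, stood in 27 of the 29, against 34.6% of 35116 promoters of the table. TATAAA stood in 19, against 11.5% of the table. The octamer ATTTGCAT stood in 11, against 1.77%, and these were 7 of 11 H2B and 4 of 6 H2A promoters. The H1 box AAACACA stood in 7, against 5.64%, and these were all 6 H1 promoters and 1 of H2A. The 4 sequences below are the 250 bases before the start of 4 genes, 2 of H1 and 2 of H2B, whose time courses are given in most detail, printed 5′ to 3′ on the gene's strand. Capitals mark the matches to these 4 motifs on either strand, and 0 of the matches overlap each other.
H1-4, chr6:26156079-26156328, plus strand: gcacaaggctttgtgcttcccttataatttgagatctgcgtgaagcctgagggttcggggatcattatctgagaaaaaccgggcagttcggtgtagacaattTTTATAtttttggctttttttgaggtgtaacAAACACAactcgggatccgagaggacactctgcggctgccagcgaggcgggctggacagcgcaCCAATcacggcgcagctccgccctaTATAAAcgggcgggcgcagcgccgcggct
H1-5, chr6:27867589-27867838, minus strand: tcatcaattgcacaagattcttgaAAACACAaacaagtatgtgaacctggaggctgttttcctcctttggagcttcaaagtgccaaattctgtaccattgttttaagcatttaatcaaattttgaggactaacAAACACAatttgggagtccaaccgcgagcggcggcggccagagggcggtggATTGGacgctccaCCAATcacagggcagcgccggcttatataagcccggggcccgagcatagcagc
H2BC14, chr6:27814772-27815021, plus strand: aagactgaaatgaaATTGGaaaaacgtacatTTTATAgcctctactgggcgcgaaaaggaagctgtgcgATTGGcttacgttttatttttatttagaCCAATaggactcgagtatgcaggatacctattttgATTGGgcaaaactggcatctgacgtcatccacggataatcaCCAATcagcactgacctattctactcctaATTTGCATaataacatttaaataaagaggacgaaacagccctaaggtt
H2BC5, chr6:26157871-26158120, plus strand: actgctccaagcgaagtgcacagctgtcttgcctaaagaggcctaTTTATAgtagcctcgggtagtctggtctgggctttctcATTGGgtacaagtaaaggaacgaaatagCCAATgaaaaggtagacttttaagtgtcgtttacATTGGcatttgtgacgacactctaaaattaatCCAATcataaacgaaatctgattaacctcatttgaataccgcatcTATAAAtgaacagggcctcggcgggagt
Both H1 promoters hold the H1 box with its first base at -117 from the start, and H1-5 has a further match at -226. H2BC14 carries the octamer at -48 and H2BC5 has no match to it. A CCAAT match lies at -54 in H1-4, -53 in H1-5, -77 in H2BC14 and -73 in H2BC5. A match is a description of the letters only.

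Values are log2(intensity + 16), a gene's value is the median of its kept probesets, and a log2 difference on this scale understates the change of dim genes. A probeset with 1 symbol may also take up signal from near-identical histone genes. This was not tested, so values given for a histone gene may not be of that gene alone. A gene was called when its limma adjusted p, by Benjamini-Hochberg over all 18734 genes tested, was under 0.05. The median intensity of an array was 20.44 to 20.56, and correlation across genes between replicate arrays ranged from 0.94 to 0.987. An index of each array, defined as how far its probesets with 1 gene symbol exceeded its unnamed ones in median log2 signal, averaged 1.24 ± 0.02 (SD, n = 3) at 0 min, 1.31 ± 0.04 at 20 min and 1.31 ± 0.06 at 480 min. Its part in the results was examined only in fits with it as a covariate and without the array of each time farthest from the others in index. In bulk RNA, fewer cells with a transcript and less of it per cell cannot be told apart, and all contrasts against 0 min share the same 3 untreated arrays.

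Of the 32 tested histone genes, 14 were called in the F-test over the 6 times against 0 min, or 43.8%, where 24% of all genes tested were called. By class these were 3 of 6 in H1, 4 of 7 in H2A, 5 of 12 in H2B, 1 of 5 in H3 and 1 of 2 in H4. Calls of lower signal were most frequent at 480 min, when 8 of the 32 were lower and 1 was higher. Thus 25% were called lower, where 6.25% of all genes tested were lower and 13.5% higher. The median change of the histone genes at 480 min was -0.23 on the log2 scale, against 0.05 for all genes tested. Across the 3 arrays of 480 min the median difference of the 32 genes from the 0 min mean lay between -0.25 and -0.12. Across the 3 arrays of 0 min it lay between -0.11 and 0.09, so these ranges nearly met but did not overlap. Replicate 1 of 120 min, at -0.13, and replicate 1 of 240 min, at -0.16, also lay within the range of 480 min. With the index as a covariate 10 were lower and 1 higher at 480 min. Without 0 min replicate 2 the number lower was 5, and without 480 min replicate 1 it was 6.

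**Figure D1:**
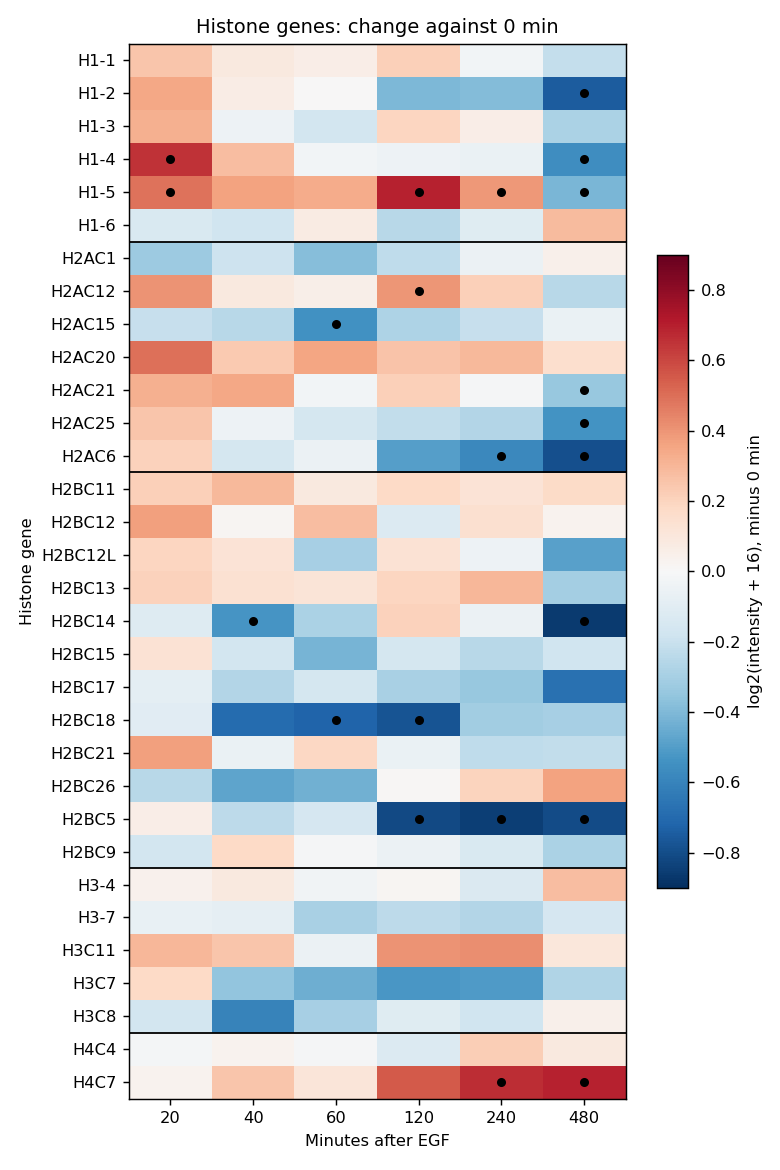
Log2 difference of each of the 32 tested histone genes (rows, by class) from 0 min at each EGF time (columns), on the log2(intensity + 16) scale, with blue lower and red higher than 0 min and black dots for called genes. At 480 min 8 genes of classes H1, H2A and H2B are called lower and H4C7 is called higher.

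**Figure D2:**
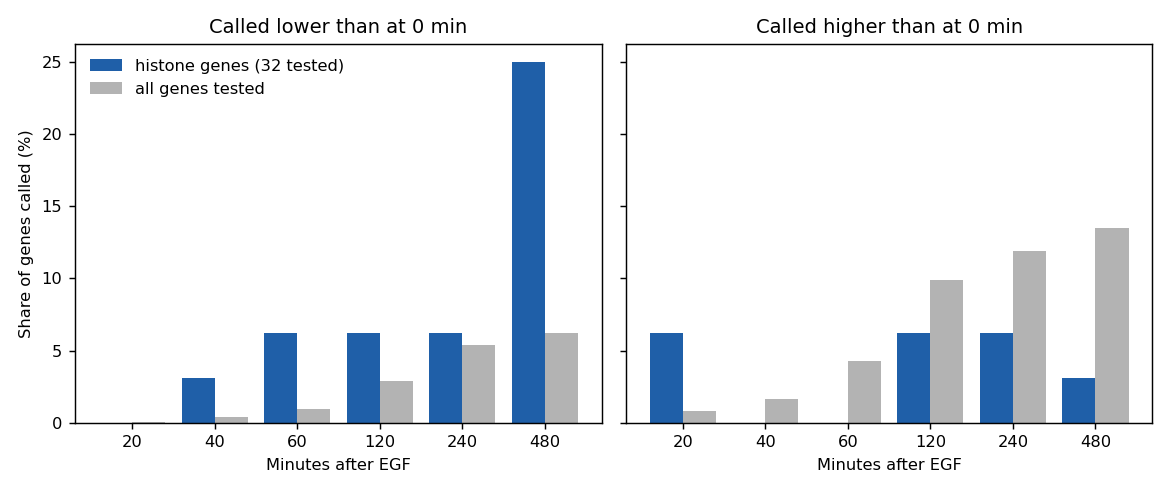
Share of genes called lower (left) and higher (right) than at 0 min, in percent of the genes tested, for the 32 tested histone genes (blue) and all 18734 genes (grey) at each EGF time. At 480 min 25% of histone genes and 6.25% of all genes are called lower.

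The earlier times held fewer calls. At 20 min 2 histone genes were called higher and 0 lower, where 0.801% of all genes were higher and 0.0747% lower, and the median change was 0.19. That median was 0.003 without the array of each time that lay farthest from the other arrays in index, an alternative chosen after seeing the data. At 40 min 1 was lower and 0 higher (0.4% of all genes lower and 1.63% higher), and at 60 min 2 were lower and 0 higher (0.982% lower and 4.28% higher). At 120 min 2 were higher and 2 lower (9.91% of all genes higher and 2.89% lower), and at 240 min again 2 and 2 (11.9% and 5.39%). Between successive times, 1 gene was called higher and 1 lower at 120 min against 60 min (1.75% and 1.08% of all genes) and 2 lower and 0 higher at 480 min against 240 min, where 0.566% of all genes were lower and 0.641% higher. At 40 against 20 min, 60 against 40 min and 240 against 120 min limma called 0 of the 32, with 12, 4 and 2 at an unadjusted p under 0.05 (0.528%, 0.181% and 1.27% of all genes called).

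H1 linker histones bind the DNA that enters and leaves the nucleosome. The major genes H1-2, H1-4 and H1-5 were all lower at 480 min, and H1-4 and H1-5 were higher at 20 min. H1-4 measured 9.05, 9.33 and 9.33 at 0 min, 9.84, 10.02 and 9.82 at 20 min, 9.07, 9.17 and 9.30 at 240 min and 8.77, 8.39 and 8.86 at 480 min. All 3 arrays at 20 min lay above those at 0 min and all 3 at 480 min lay below them. H1-4 rose by 0.65 ± 0.14 at 20 min (SE, limma adjusted p = 0.019) and fell to -0.56 ± 0.14 at 480 min (adjusted p = 0.0051). All 4 of its kept probesets moved in the direction of the gene at both times. The rise at 20 min was not called with the index covariate (0.48, adjusted p = 0.062). Nor was it called when replicate 1 of 0 min or replicate 1 or 2 of 20 min was left out (adjusted p = 0.14, 0.057 and 0.14). With 2 arrays per time, the array farthest from the others in index left out, it was 0.50 and not called (limma adjusted p = 0.18). The fall at 480 min was called in all 31 alternatives.

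H1-5 stayed above its 0 min level longer. It measured 7.64, 7.98 and 7.90 at 0 min, 8.24, 8.46 and 8.28 at 20 min, 8.37, 8.52 and 8.70 at 120 min, 8.13, 8.24 and 8.32 at 240 min and 7.40, 7.34 and 7.54 at 480 min. Every array from 20 to 240 min exceeded all 3 at 0 min, and every array at 480 min was below them. The change was 0.49 ± 0.11 at 20 min (adjusted p = 0.036), 0.69 ± 0.11 at 120 min (0.00018), 0.39 ± 0.11 at 240 min (0.018) and -0.41 ± 0.11 at 480 min (0.011). H1-5 fell by 0.80 ± 0.11 at 480 min against 240 min (limma adjusted p = 0.00041), the contrast that shares no array with 0 min. The calls at 120 min and between 240 and 480 min held in all 31 alternatives. The call at 20 min was lost in 12 of them, 8 of which left out 1 array (0 min replicates 1 and 3, 20 min replicates 1 and 2, 40 min replicate 3, 120 min replicate 2, 240 min replicate 2 and 480 min replicate 1) at adjusted p = 0.051 to 0.25. The call at 240 min was lost without 0 min replicate 1 or 240 min replicate 2 or 3 (adjusted p = 0.1, 0.055 and 0.088) and with 2 arrays per time (0.34, 0.061). The call at 480 min was lost without 0 min replicate 2 (0.064).

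H1-2 measured 5.79, 5.73 and 6.09 at 480 min, against 6.14, 6.52 and 7.20 at 0 min. The groups did not overlap, although the 0 min arrays were widely spread. The change was -0.75 ± 0.20 (adjusted p = 0.0089), all 5 kept probesets were lower, and without 0 min replicate 3, the highest array, it was -0.46 and not called (adjusted p = 0.07). The remaining H1 genes were not called in any contrast of the fit used here. H1-1 changed by -0.22 ± 0.12 and H1-3 by -0.29 ± 0.15 at 480 min, and H1-6, the testis linker histone, by 0.29 ± 0.20 on 1 kept probeset. H1-1 was called lower at 480 min with the mean over probesets (-0.40, adjusted p = 0.00078), the index covariate (-0.35, 0.018) and the filter at the 75th percentile (-0.45, 0.011). H1-3 was called lower with the last 2 of these (-0.50, 0.0028, and -0.65, 0.012). The value of -0.65 is that of 1 of its 2 kept probesets, and the other was at 0.08 at 480 min.

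**Figure D3:**
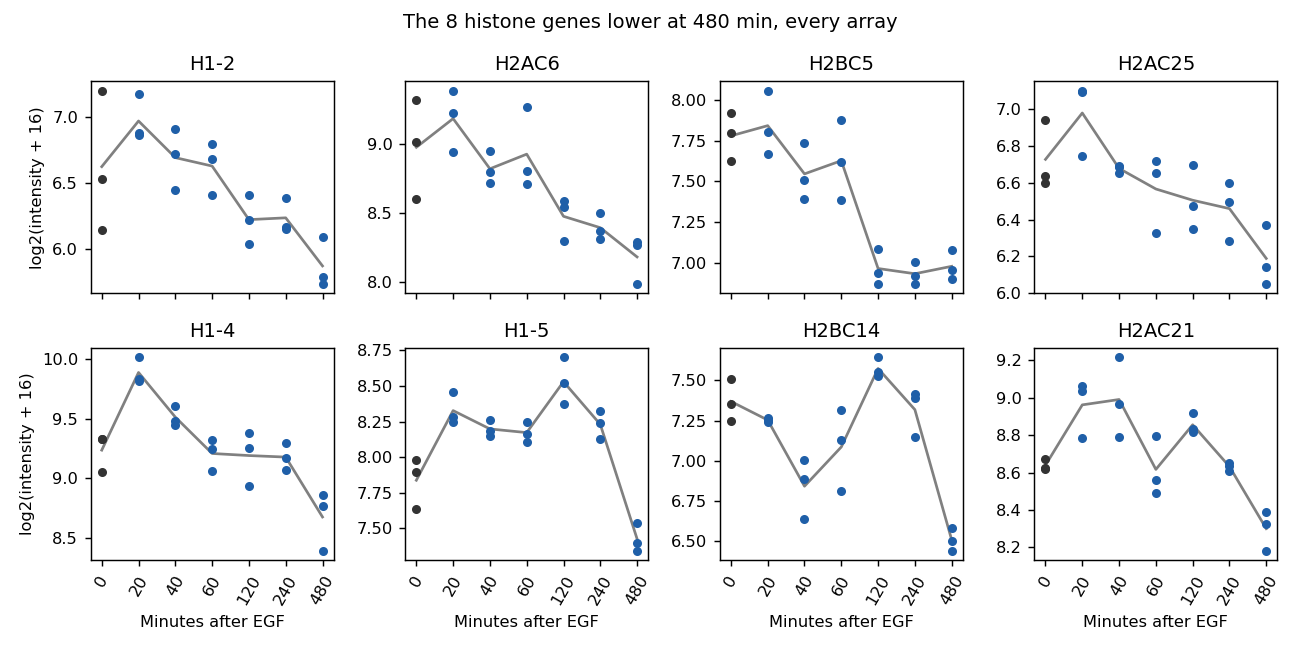
Level of the 8 histone genes called lower at 480 min, as log2(intensity + 16), against minutes after EGF, with each point an array (black at 0 min, blue after EGF) and the line through the means of 3 arrays. H2BC5 is at its low level from 120 min, whereas H1-5 and H2BC14 are low at 480 min but not at 240 min.

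Among the H2A genes 3 of 7 were lower at 480 min and 0 higher. H2A pairs with H2B in the outer part of the histone octamer. H2AC6 measured 8.60, 9.01 and 9.31 at 0 min, 8.30, 8.55 and 8.59 at 120 min, 8.37, 8.32 and 8.50 at 240 min and 8.29, 7.99 and 8.27 at 480 min. Its arrays at 240 and 480 min all lay below those at 0 min. The change was -0.50 ± 0.17 at 120 min (limma adjusted p = 0.056, not called), -0.58 ± 0.17 at 240 min (0.02) and -0.79 ± 0.17 at 480 min (0.0018), with 5 of 5 kept probesets lower at 480 min. The call at 480 min held in all 31 alternatives, and that at 240 min was lost without 0 min replicate 2 or 3 or 240 min replicate 1 or 2 (adjusted p = 0.057, 0.12, 0.056 and 0.074) and without the filter (-0.39, 0.089).

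H2AC25 and H2AC21, both on chromosome 1, were lower at 480 min. H2AC25 measured 6.05, 6.37 and 6.14 at 480 min, against 6.64, 6.94 and 6.60 at 0 min, with no overlap. It changed by -0.54 ± 0.14 (adjusted p = 0.0083), with 4 of 4 kept probesets lower, and was not called without 0 min replicate 2 (-0.43, adjusted p = 0.057) or 480 min replicate 1 (-0.47, 0.051). H2AC21 measured 8.33, 8.39 and 8.18 at 480 min, against 8.62, 8.68 and 8.63 at 0 min, again with no overlap. Its change of -0.34 ± 0.11 (adjusted p = 0.041) lay near the threshold and lost its call in 12 of 31 alternatives. Of these, 8 left out 1 array (any array of 0 min, 120 min replicate 2, 240 min replicate 2 or 3, or 480 min replicate 1 or 3) at adjusted p = 0.05 to 0.17.

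The other H2A calls against 0 min each fell at 1 time. H2AC12, measured by 1 kept probeset, was 6.67, 6.62 and 6.63 at 120 min, against 6.22, 6.20 and 6.30 at 0 min. It was higher by 0.40 ± 0.13 (limma adjusted p = 0.042), a call lost in 15 of 31 alternatives. Among them were the fits without any array of 0, 120 or 240 min or without 60 min replicate 3 (adjusted p = 0.05 to 0.1), and the fit without the filter (0.20, 0.23). Its arrays of 20 min (6.45, 6.83 and 6.65) and 240 min (6.45, 6.42 and 6.49) also lay above those of 0 min, though it was called at neither time. The change at 20 min was 0.41. H2AC15 measured 5.39, 5.32 and 5.43 at 60 min, against 5.76, 6.13 and 5.88 at 0 min, and was lower by 0.54 ± 0.14 on the log2 scale (adjusted p = 0.025). It was not called in the F-test (0.081). The call at 60 min was lost without 0 min replicate 2 or any array of 60 min (0.067 to 0.12) and without the filter (-0.37, 0.092). With the mean over probesets (-0.39, 0.056) and the index covariate (-0.49, 0.066) it was also lost. Of the 3 kept probesets of H2AC15 2 were lower at 60 min, and the other was at 0.19. H2AC20 was not called at any time, with 0.50 ± 0.17 at 20 min (adjusted p = 0.16) and 0.15 ± 0.17 at 480 min, nor was the testis gene H2AC1, at 0.04 ± 0.25 at 480 min on 1 kept probeset.

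Among the H2B genes 2 of 12 were lower at 480 min and 0 higher, and these reached their low signal at different times. H2BC5 measured 7.62, 7.80 and 7.92 at 0 min, 7.62, 7.38 and 7.88 at 60 min, 6.94, 6.87 and 7.08 at 120 min, 6.87, 7.01 and 6.92 at 240 min and 6.96, 7.07 and 6.90 at 480 min. All 9 arrays from 120 min on lay below every array of the earlier times listed. The change was -0.82 ± 0.13 at 120 min (limma adjusted p = 0.0002), -0.85 ± 0.13 at 240 min (9.4e-05) and -0.80 ± 0.13 at 480 min (0.00015). It fell by 0.66 ± 0.13 at 120 min against 60 min (0.0049) and differed by 0.05 ± 0.13 at 480 min against 240 min (0.95). These 4 calls held in all 31 alternatives. Both kept probesets were lower at 120, 240 and 480 min, by unequal amounts: one was at -0.41, -0.27 and -0.43 and the other at -1.22, -1.42 and -1.17. At 480 min against 240 min they went opposite ways, at -0.16 and 0.25.

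H2BC14 measured 7.25, 7.35 and 7.51 at 0 min, 7.0, 6.63 and 6.88 at 40 min, 7.53, 7.64 and 7.55 at 120 min, 7.15, 7.39 and 7.42 at 240 min and 6.50, 6.58 and 6.44 at 480 min. It was thus below the 0 min arrays at 40 min, above them at 120 min and below them at 480 min. The change was -0.53 ± 0.12 at 40 min (adjusted p = 0.025), and it rose by 0.49 ± 0.12 at 120 min against 60 min (0.035). It fell by 0.81 ± 0.12 at 480 min against 240 min (0.0011) and was at -0.86 ± 0.12 against 0 min (limma adjusted p = 3.6e-05). By the median of kept probesets this was the largest fall of any tested histone gene at 480 min. Its 3 kept probesets were at -0.86, -0.64 and -0.44. The last 2 calls held in all 31 alternatives, with 3 of 3 kept probesets lower against 0 min and 2 of 3 lower against 240 min. The call at 40 min was lost without 0 min replicate 2 or 3 or 40 min replicate 2 or 3 (adjusted p = 0.068 to 0.16), with the filter at the 75th percentile (-0.34, 0.22) and with the mean over probesets (-0.30, 0.15). The rise between 60 and 120 min was lost without 60 min replicate 2 or 3 or any array of 120 min (0.059 to 0.23) and was 0.28 with the mean over probesets (0.14). Its call was also lost with the replicate as a block (0.49, limma adjusted p = 0.051) and with 2 arrays per time (0.38, 0.18).

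H2BC5 starts 1792 bases downstream of H1-4 on the same strand of chromosome 6. H2BC5 was at -0.85 and H1-4 at -0.06 at 240 min, and the difference between the 2 genes was not tested. H2BC18, measured by 1 probeset, was 5.32, 5.90 and 5.56 at 60 min and 5.05, 5.69 and 5.89 at 120 min, against 6.12, 6.41 and 6.42 at 0 min. It was lower at 60 min by 0.72 ± 0.20 on the log2 scale (limma adjusted p = 0.039) and at 120 min by 0.78 ± 0.20 (0.012), with no overlap. At 480 min it stood at -0.30 and was not called, but was called with the index covariate (-0.56, 0.013). The call at 120 min was lost without 120 min replicate 1 (-0.53, adjusted p = 0.064), and that at 60 min without 0 min replicate 2 or 3, 40 min replicate 3, 60 min replicate 1 or 3 or 480 min replicate 1 (0.05 to 0.17). With a pseudocount of 1 the call at 60 min was also lost (-0.97, limma adjusted p = 0.057).

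H2BC15 and H2BC26 were called in the F-test over all times (adjusted p = 0.041 and 0.0012) but at no single time. H2BC15 was at -0.42 ± 0.13 at 60 min (adjusted p = 0.057) and -0.18 at 480 min, where the filter at the 75th percentile called it lower (-0.40, 0.032). That filter left 1 of its 2 kept probesets, and the other was at 0.05 at 480 min. H2BC26 measured 5.64, 5.92 and 5.43 at 0 min, 5.46, 5.20 and 4.90 at 40 min and 6.19, 5.87 and 6.02 at 480 min. Its change was -0.48 ± 0.15 at 40 min (0.14) and 0.36 ± 0.15 at 480 min (0.11). It was called higher at 480 min without 0 min replicate 2 (0.49, limma adjusted p = 0.046), with the filter at the 75th percentile (0.60, 0.042) and with the mean over probesets (0.33, 0.027). The filter left 1 of its 3 kept probesets, and the others were at -0.05 and 0.44 at 480 min.

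The other 7 H2B genes were called in no contrast. At 480 min H2BC17 was at -0.67 ± 0.27 (adjusted p = 0.087, and called at -0.89 without 480 min replicate 2, 0.029). H2BC12L was at -0.49 ± 0.19 (0.08, and called without 0 min replicate 3 or 480 min replicate 2, 0.044 and 0.034). H2BC13 was at -0.30 ± 0.20 against 0 min and -0.60 ± 0.20 against 240 min (adjusted p = 0.21). Values near 0 were those of H2BC12, at 0.03 ± 0.15, and H2BC11, at 0.17 ± 0.13.

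H3 and H4 form the tetramer at the core of the nucleosome, and few of their genes had kept probesets with 1 symbol. Of 5 tested H3 genes limma called 0 against 0 min at any time, with 0 to 3 at an unadjusted p under 0.05 at each time. H3C7 was called in the F-test (limma adjusted p = 0.039). It measured 6.61, 6.70 and 6.87 at 0 min, 6.17, 6.22 and 6.22 at 120 min, 6.21, 6.55 and 5.89 at 240 min and 6.61, 6.24 and 6.51 at 480 min, at -0.52 ± 0.19 (0.079), -0.51 ± 0.19 (0.072) and -0.27 against 0 min at these EGF times. At 480 min it was called lower without the filter (-0.63, 0.013) and with the mean over probesets (-0.45, 0.021). H3C11 was at 0.42 ± 0.15 at 240 min (0.058) and 0.10 ± 0.15 at 480 min. H3C8 was at -0.60 ± 0.17 at 40 min (0.075), H3-7 at -0.15 ± 0.12 at 480 min and H3-4, the testis H3 gene, at 0.27 ± 0.17.

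H4C7 was the only tested histone gene called higher at 480 min, and rests on the 1 of its 4 probesets that passed the filter. It measured 5.87, 5.38 and 5.92 at 240 min and 6.07, 5.58 and 5.61 at 480 min, against 4.78, 5.02 and 5.38 at 0 min. The arrays at 240 and 480 min all lay above those at 0 min, although the lowest at 240 min and the highest at 0 min both round to 5.38. The change was 0.66 ± 0.19 at 240 min (limma adjusted p = 0.019) and 0.69 ± 0.19 at 480 min (0.012), but with all 4 probesets it was -0.07 and -0.20. The call at 480 min was lost without 0 min replicate 1 or 480 min replicate 1 (0.072 and 0.09), and that at 240 min without 0 min replicate 1 or 2 or 240 min replicate 1 or 3 (0.054 to 0.1). With 2 arrays per time the call at 240 min was also lost (0.45, limma adjusted p = 0.18). H4C4 was at 0.09 ± 0.19 at 480 min.

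Many histone genes are so alike that a probeset cannot be given to 1 of them. A further 127 probesets carried several symbols, all of histone genes, and 107 passed the filter on dim signal. At 480 min 90 of the 107 had a lower mean than at 0 min. The median change over all 107 was -0.43 on the log2 scale, against 0.05 over the 261183 kept probesets with 1 symbol. In 46 of the 107 all 3 arrays at 480 min lay below all 3 at 0 min and in 0 all lay above. Of the kept probesets with 1 symbol 12.7% lay all below and 17.6% all above. These probesets overlap in sequence and are not independent.

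The H4 probesets of this kind had a negative median change from 40 min on. The median change over 41 probesets was 0.17 at 20 min, -0.05 at 40 min, -0.27 at 60 min, -0.31 at 120 min, -0.39 at 240 min and -0.57 at 480 min. Single probesets ranged from -1.52 to 0.60 at 240 min and from -1.15 to 0.24 at 480 min. While 25 of the 41 were lower at 480 min than at 240 min, those lowest at 240 min, at -1.52 and -1.50, were at -0.96 and -0.99 at 480 min. The course of the median was thus not that of every probeset. Across arrays the median difference from the 0 min mean was -0.53, -0.64 and -0.55 at 480 min, against -0.07, 0.10 and -0.06 at 0 min. In 36 of the 41 the mean was lower at 480 min, and in 22 all arrays were below. This is opposite in sign to the single H4C7 probeset, whose mean at 0 min was under the filter. The 31 H2A probesets were at -0.24 in the median at 480 min (27 lower), and the 4 H3 probesets at -0.90 (4 lower). The 10 H2B probesets were at 0.03 (4 lower), and the 21 with symbols of more than 1 class at -0.50 (19 lower). The median of the 41 H4 probesets at 480 min lay between -0.69 and -0.48 without any 1 array of 0 or 480 min.

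**Figure D4:**
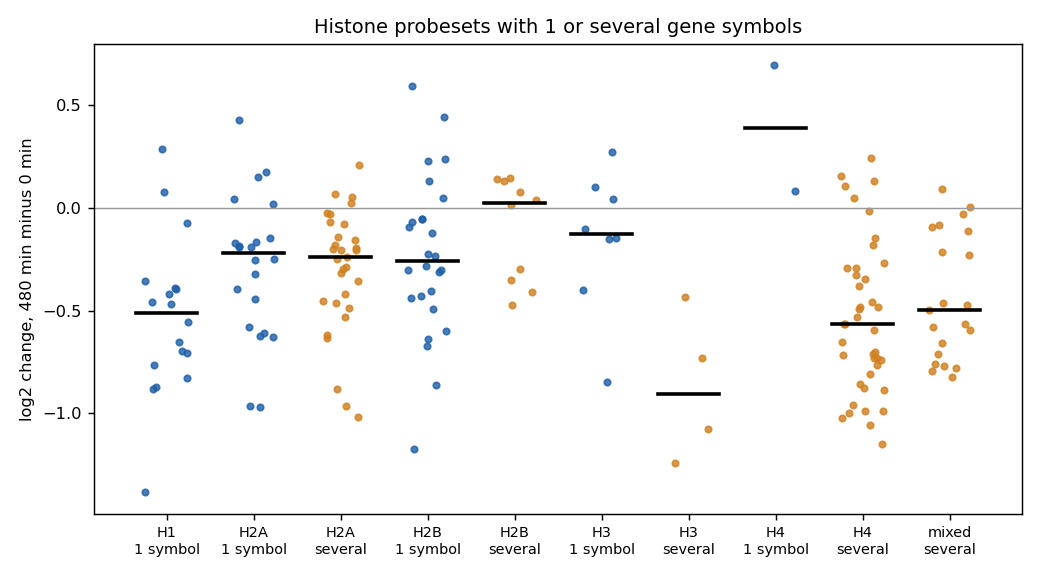
Log2 difference at 480 min from 0 min (vertical axis, log2(intensity + 16) scale) of every kept histone probeset, with blue points for probesets with 1 gene symbol, orange for those with several histone symbols, and a bar at the median of each column. H4 probesets with several symbols have a median of -0.57, while H2B probesets with several symbols have a median of 0.03.

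The remaining 12 genes (H2AC4, H2AC7, H2AC14, H2AC17, H2BC1, H2BC3, HIST1H2BG, HIST1H2BI, H3C2, H3C12, H4C6 and H4C13) had only dim probesets and were not tested. A dim probeset does not show that the gene was silent. Without the filter, all 44 could be tested, and 9 were lower and 0 higher at 480 min.

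Of 7 genes known from other work to give polyadenylated as well as stem-loop transcripts, 5 were tested. At 480 min 3 of these 5 (H1-2, H2AC6 and H2BC5) were lower and 0 higher, where 6.25% of all genes were lower and 13.5% higher. H2BC12 and H2BC21 were not called, and H2BC21, at -0.22 ± 0.22, was called lower with the filter at the 75th percentile (-0.41, limma adjusted p = 0.035). H2BC4 and H2AC18 had only probesets with several symbols. The median of the 5 was -0.40 at 120 min and -0.75 at 480 min. Of 4 germline genes 3 were tested and 0 called at any time, where 24% of all genes were called in the F-test.

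Genes of DNA replication and of entry into S phase were higher where called at 480 min. Of 31 tested genes of this list 9 were higher and 0 lower (13.5% and 6.25% of all genes), with a median change of 0.19. CCNE1 and CCNE2, the cyclin E genes that drive entry into S phase, were higher by 0.95 ± 0.15 (limma adjusted p = 0.00013) and 0.83 ± 0.17 (0.0015). CDC6, which loads the replicative helicase, was higher by 0.83 ± 0.17 (0.0013) and UHRF1, which maintains DNA methylation at replication, by 0.57 ± 0.11 (0.0011). MCM3, MCM6, ORC1, FEN1 and RFC4 were the other 5. At 240 min 1 gene of the list was higher and 6 were lower, where 11.9% of all genes were higher and 5.39% lower. The higher gene was CCNE1 (0.56 ± 0.15, limma adjusted p = 0.015). PRIM1, a primase subunit gene, was among the lower ones, at -0.89 ± 0.15 (0.00023). The count at 480 min was 5 without 0 min replicate 1 or without 480 min replicate 3, and that at 240 min was 3 without 0 min replicate 3 or 240 min replicate 1 or 2.

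Genes that process histone mRNA were also higher where called. Of 20 genes of 3′ end processing and the histone locus body, 6 were higher and 0 lower at 480 min (13.5% and 6.25% of all genes), with a median change of 0.20. LSM11 and LSM10, which encode proteins particular to the U7 particle, were higher by 0.76 ± 0.16 (limma adjusted p = 0.0018) and 1.06 ± 0.30 (0.017). CSTF2, a cleavage factor subunit gene, was higher by 0.73 ± 0.12 (0.00016), ERI1, the exonuclease gene of histone mRNA decay, by 0.61 ± 0.14 (0.0031) and ZNF473, a U7 cofactor gene, by 0.34 ± 0.09 (0.0091). LSM11 was already higher at 120 min, by 1.06 ± 0.16 (0.00011). NCBP1, a cap-binding protein gene, was the last of the 6. SLBP, at 0.59 ± 0.24 (0.1), and NPAT, at 0.04 ± 0.16 (0.9), were not called at 480 min, nor was UPF1, an RNA helicase gene of mRNA decay, at 0.13 ± 0.10 (0.41).

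Of 22 histone chaperone genes 4 were higher and 0 lower at 480 min (13.5% and 6.25% of all genes). These were DNAJC9 at 0.46 ± 0.13 (limma adjusted p = 0.016), SSRP1, a subunit gene of the FACT complex, at 0.45 ± 0.10 (0.0035), IPO4, an importin gene, at 0.39 ± 0.11 (0.014) and UBN1 at 0.34 ± 0.11 (0.032). HIRA, which encodes a chaperone of H3.3, was higher at 240 min by 0.34 ± 0.10 (0.022) and at 0.28 ± 0.10 at 480 min (0.052). CHAF1A, which encodes a subunit of the assembly factor CAF-1, was lower at 240 min by 0.65 ± 0.11 on the log2 scale (0.00018). The count of 4 became 1 without replicate 3 of 0 min or replicate 1 of 480 min and 2 without replicate 3 of 480 min. It became 7 and 8 without replicates 1 and 3 of 120 min. Of 10 tested replication-independent variants, H3-3B, an H3.3 gene, was higher at 480 min by 0.37 ± 0.10 (0.015) and H1-10 lower at -0.53 ± 0.15 (0.015), so 1 of 10 went each way, where 13.5% of all genes were higher and 6.25% lower. The variant genes MACROH2A1 and H2AX, at -0.0019 and -0.051, were not called. That count of 2 was 0 without 0 min replicate 3 and 1 without 0 min replicate 2 or 480 min replicate 1 or 2.

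**Figure D5:**
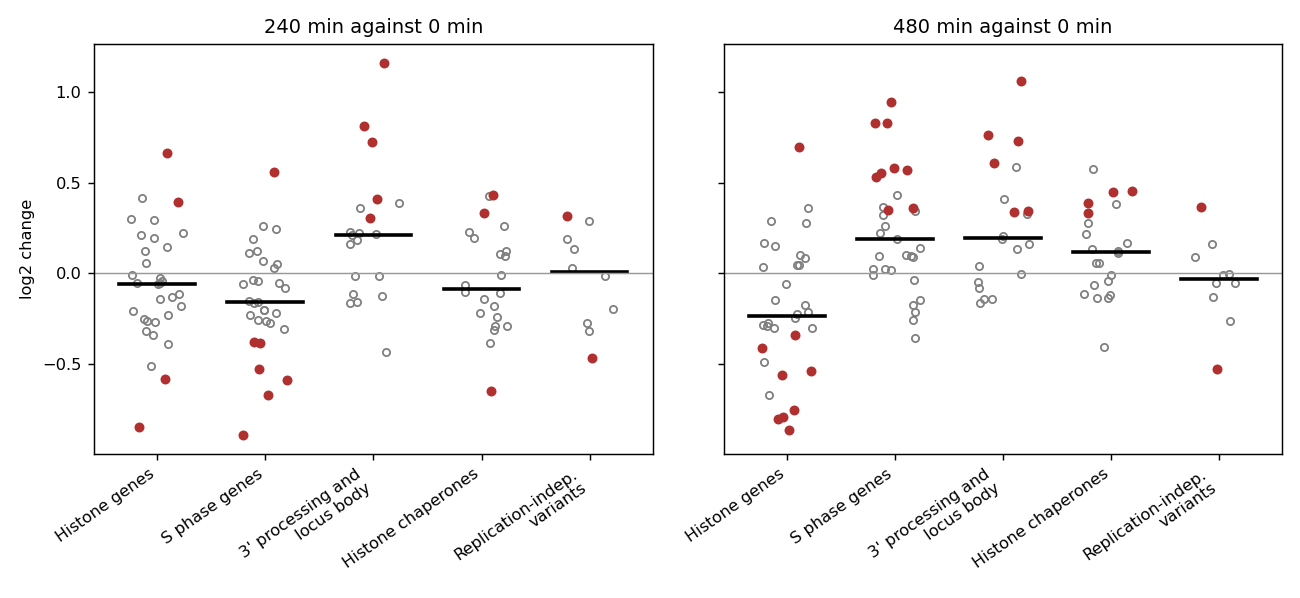
Log2 difference from 0 min at 240 min (left) and 480 min (right) of the tested histone genes and the genes of 4 related lists, with filled points for called genes, open points for the others and a bar at each median. At 480 min the median is -0.23 for the histone genes and 0.19 for the S phase genes.

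Markers of basal, luminal and fibroblast cells were counted beside these results. At 480 min 3 of 11 basal markers were higher and 0 lower, 2 of 11 luminal markers were higher and 1 lower, and 1 of 9 fibroblast markers was higher and 1 lower, where 13.5% of all genes were higher and 6.25% lower. Their part in the histone results was not tested.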

How the data were processed

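Gene expression of MCF10A cells was measured on 21 arrays, 3 at each of 7 times. The deposited table held linear intensity values of 1384231 probesets, made by the authors with PLIER and Affymetrix Expression Console 1.1 among their tools, per the submitters' processing notes. The settings and the genome build were not given in the sources used here. Array medians were nearly equal, so the values were taken as already normalized.

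Probesets were named through the platform annotation. It gave 354600 probesets 1 symbol and 14898 several, and left 1014733 unnamed here. Of 19497 symbols 16426 were current in RefSeq (GRCh38.p14), 2950 were updated and 121 kept. Analysis used log2(intensity + 16). Probesets entered at a mean of at least 5.18 (20.2 intensity units), which kept 261183 with 1 symbol. A gene was the median of its kept probesets. limma 3.58.1 (R 4.3.3, with the package data.table at 1.17.8) fitted 1 mean per time on 18734 genes, with 14 residual and 6.34 prior degrees of freedom and a median gene SD of 0.175, and tests were two-sided. Values after ± are standard errors between 3 and 3 arrays unless called SD. Precision is limited by the number of arrays. The scripts were tested on simulated data.

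The members, the lists and the rule for named genes were chosen with earlier results of these data known. Named were all called members, the 3 with the highest mean and those with the largest rise and fall at 480 min in each class, and up to 4 genes per related list by F-test (cell type markers as counts only). Other genes of a list's count, SLBP and NPAT, and the remaining members given with values were named after their values were seen. Alternatives were no filter or a filter at the 75th percentile, quantile normalization, median centring, pseudocounts of 1 and 64, the mean over probesets, the array index as covariate, the replicate letter as a block and leaving out each array, and, chosen after seeing the data, 2 arrays per time.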

Additional observations from a re-analysis of the deposited data

How the results depend on the processing

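Of 26 member calls 10 held in all alternatives run and 2 reversed, those of H4C7 without the filter (-0.071 at 240 min and -0.20 at 480 min), where 3 dim probesets join the median. The lower calls at 480 min outnumbered the higher ones in every alternative, leaving out 1 array included, with 5 to 12 lower. Without the filter the counts of called histone genes were 1 at 20 min and 2 at 40 min, and the median change at 480 min was -0.126. With the filter at the 75th percentile (22 genes) the counts were 0 at 40 and 60 min, and the medians 0.097 at 40 min, -0.121 at 60 min and -0.407 at 480 min. Median centring gave 2 calls at 40 min and medians of -0.107 at 60 min, -0.136 at 120 min and -0.300 at 480 min. A pseudocount of 1 gave 1 call at 20 min and 1 at 60 min, and one of 64 a median of -0.167 at 480 min. The mean over probesets gave 0 calls at 40 min, 7 at 120 min, 8 at 240 min and 4 between 240 and 480 min, and a median of -0.138 at 60 min. The index covariate gave 0, 3, 1 and 7 calls at 20, 40, 60 and 240 min, 5, 1 and 4 between 60 and 120, 120 and 240, and 240 and 480 min, and medians of -0.196 at 60 min and -0.330 at 480 min. With 2 arrays per time, chosen after seeing the data, the counts were 0 at 20 min, 3 at 40 min, 1 between 40 and 60 min and 1 between 60 and 120 min, with medians of 0.0031 at 20 min and -0.111 at 60 min. Where no reason is given, the cause was not tested.

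Over all pairs of arrays from different times, arrays of the same replicate letter were no more alike than arrays of different letters. Deviations of same-letter arrays correlated at -0.52 to 0.55 (median -0.02, 63 pairs), and of different letters at -0.63 to 0.67 (median 0.003, 126 pairs). The highest same-letter values, 0.54 to 0.55, were between replicates 3 of 60, 120 and 480 min. Dependence among these arrays was examined only in the fit with the letter as a block. With the letter as a replicate block 2 genes were called at 40 min and 1 between 60 and 120 min, and 7 were lower and 1 higher at 480 min.

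Leaving out 1 array at a time gave 12 to 16 genes in the F-test, 0 to 2 at 20 min, 0 to 2 at 40 min, 0 to 3 at 60 min, 3 to 5 at 120 min, 2 to 5 at 240 min, 6 to 11 at 480 min, 1 to 2 between 60 and 120 min and 2 to 2 between 240 and 480 min. The medians ranged from -0.157 to -0.026 at 60 min, -0.096 to 0.040 at 120 min and -0.262 to -0.171 at 480 min. Of the tested genes 12 rest on 1 kept probeset, with no second probeset to set beside it.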
